A study of Mus musculus with 72 samples.

Results

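The 8 genes described here encode the replicative helicase MCM2-7 (*Mcm2*, *Mcm3*, *Mcm4*, *Mcm5*, *Mcm6* and *Mcm7*), the sliding clamp PCNA (*Pcna*) and the catalytic subunit of DNA polymerase delta (*Pold1*). They are 8 of the 55573 genes in a count table of mouse liver RNA, and each was found by matching its Ensembl identifier to its symbol. The genes were chosen with genotype, microbial and time effects of these data already known, so their values for those effects are given as a description and without p-values.

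The MCM2-7 proteins form a ring that is loaded onto DNA at replication origins in G1, and the loaded ring is activated in S phase to unwind the template. PCNA encircles DNA behind the helicase and tethers DNA polymerase delta, which extends the lagging strand. Most adult hepatocytes are quiescent, and the genes of this machinery are classical targets of E2F transcription factors, which are held in check by retinoblastoma proteins outside S phase. *Bmal1* (*Arntl* in the count table) encodes the transcription factor that, with CLOCK or NPAS2, drives the circadian clock.

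Livers came from male mice labelled C57BL/6 (C57BL/6J in the study's methods), 1 library per mouse, and all carried *Bmal1* fl/fl alleles. WT mice carried no Cre, whereas LKO mice also carried Albumin-Cre, which the study used to delete *Bmal1* in the liver. Bulk counts do not show in which liver cells it was deleted. Mice of each genotype were either specific-pathogen free (SPF) or germ free (GF, kept in isolators), and no further treatment is described for these samples. Livers were collected at zeitgeber time (ZT, hours after lights on) 2, 6, 10, 14, 18 and 22, with 3 mice at each time, giving 18 libraries in each of the 4 groups and 72 in all. The labels number the mice but do not tie them to cages or litters.

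The 8 genes lie on 7 chromosomes (GRCm38, GENCODE vM21). *Mcm6* spans chr1:128331590-128359664 and *Mcm3* chr1:20802968-20820312, both on the minus strand. *Mcm2* spans chr6:88883474-88898780, *Mcm4* chr16:15623897-15637400, *Mcm7* chr5:138164583-138172422, *Pcna* chr2:132249162-132253314 and *Pold1* chr7:44532746-44548849, again on the minus strand, and *Mcm5* spans chr8:75109569-75128439 on the plus strand. Only *Mcm7* shares exon bases with other annotated genes: 321 of its 4426 exon bases (7.25%) lie opposite *Ap4m1* and 64 opposite *Cops6*, and the microRNA genes *Mir25* and *Mir93* lie within it. *Pcna* has 2 annotated processed pseudogenes, *Pcna-ps1* and *Pcna-ps2*, and reads that mapped to more than 1 place were not counted.

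Because E2F and clock factors both act at promoters, the RefSeq promoter windows (GRCm38.p6, 250 bases before to 50 after the start) of 7 of the 8 genes were searched on both strands; *Mcm4* had no entry in the table used. The E2F letters searched were TTTCCCGC, TTTCGCGC, TTTGCCGC and TTTGGCGC. They occurred in 5 of these 7 genes, against 23 of the 79 other replication genes with a window (29.1%), 704 of all 27025 genes and 744 of all 32851 windows (2.26%). The canonical E-box CACGTG, the element bound by BMAL1 and its partners, occurred in none of the 7, against 2187 of 27025 genes (8.09%), and the RORE letters TAGGTCA occurred only in *Mcm2*, from position -198 to -192. These matches are descriptions of letters, not of binding. The stretches that hold E2F letters are shown with those letters in capitals, on the strand of the gene and with positions counted from the RefSeq start (+1), beside stretches of *Mcm2* and *Pcna*, whose windows held none; stretches covered by an annotated transcript are cut to 30 bases.
Mcm6, chr1:128359706-128359825, minus strand, -120 to -1: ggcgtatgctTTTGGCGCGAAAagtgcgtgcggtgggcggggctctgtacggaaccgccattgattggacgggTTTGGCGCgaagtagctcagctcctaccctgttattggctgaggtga
Mcm5, chr8:75109344-75109463, plus strand, -165 to -46: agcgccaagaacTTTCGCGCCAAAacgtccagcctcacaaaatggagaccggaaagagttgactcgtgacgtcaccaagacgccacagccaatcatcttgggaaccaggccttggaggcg
Mcm7, chr5:138172030-138172059, minus strand, -176 to -147: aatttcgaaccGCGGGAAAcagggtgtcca
Mcm7, chr5:138171851-138171880, minus strand, 4 to 33: atgggtgacgacgTTTCGCGCcaatttcgg
Mcm3, chr1:20820266-20820295, minus strand, 18 to 47: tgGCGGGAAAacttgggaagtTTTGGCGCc
Pold1, chr7:44548766-44548795, minus strand, 21 to 50: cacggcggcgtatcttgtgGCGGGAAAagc
Mcm2, chr6:88898781-88898900, minus strand, -120 to -1: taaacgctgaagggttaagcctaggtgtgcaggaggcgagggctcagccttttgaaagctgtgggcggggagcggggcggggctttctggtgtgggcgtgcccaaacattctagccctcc
Pcna, chr2:132253315-132253430, minus strand, -250 to -135: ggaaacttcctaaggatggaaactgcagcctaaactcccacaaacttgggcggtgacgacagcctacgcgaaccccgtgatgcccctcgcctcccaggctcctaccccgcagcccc
In *Mcm6* and in *Mcm5*, 2 of the letter groups overlap each other by 4 bases on opposite strands, so each run of 12 capitals counts as 2 matches.

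Library totals ran from 17369927 to 22076113 counts. The deletion was checked first: total *Arntl* counts do not isolate the deleted exon, so *Npas2*, a BMAL1 partner that the clock represses through REV-ERB, was read with it. *Npas2* was at 14.4 CPM (counts scaled to the size of the library) or more in 34 of the 36 LKO libraries and at 12.96 CPM or less in all 36 WT libraries. The other 2 LKO libraries went against their label: SPF LKO ZT14 replicate 2 had 0.221 CPM of *Npas2* beside 24.0 and 25.2 CPM in its 2 neighbours, and SPF LKO ZT18 replicate 1 had 1.83 CPM beside 27.6 and 36.4 CPM. In WT mice *Arntl* should follow the time of day, and 2 libraries stood apart, SPF WT ZT14 replicate 3 at 2.11 CPM beside 15.8 and 19.3 CPM and GF WT ZT6 replicate 3 at 8.24 CPM beside 1.64 and 2.42 CPM. All 4 were kept under their labels, and values without them are given where they changed a call, a direction or an overlap.

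Transcripts of the 8 genes were scarce to moderate in these livers. On the length-corrected scale (CPM per kilobase of exon), the mean level in SPF WT mice was 4.54 ± 0.432 for *Pcna*, 1.46 ± 0.210 for *Mcm7*, 1.03 ± 0.265 for *Mcm4*, 0.940 ± 0.200 for *Mcm6*, 0.889 ± 0.176 for *Mcm3*, 0.481 ± 0.157 for *Mcm5*, 0.339 ± 0.0935 for *Mcm2* and 0.223 ± 0.0617 for *Pold1* (SD, n = 18 each). *Pcna* and *Mcm7* stood above the rest by more than their spread, while *Mcm4*, *Mcm6* and *Mcm3* differed among themselves by less than 1 SD. Raw counts behind these levels ran from 173 to 246 per library for *Pcna* but only from 9 to 34 for *Pold1*, so *Pold1* is the least precisely measured of the group.

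**Figure D1:**
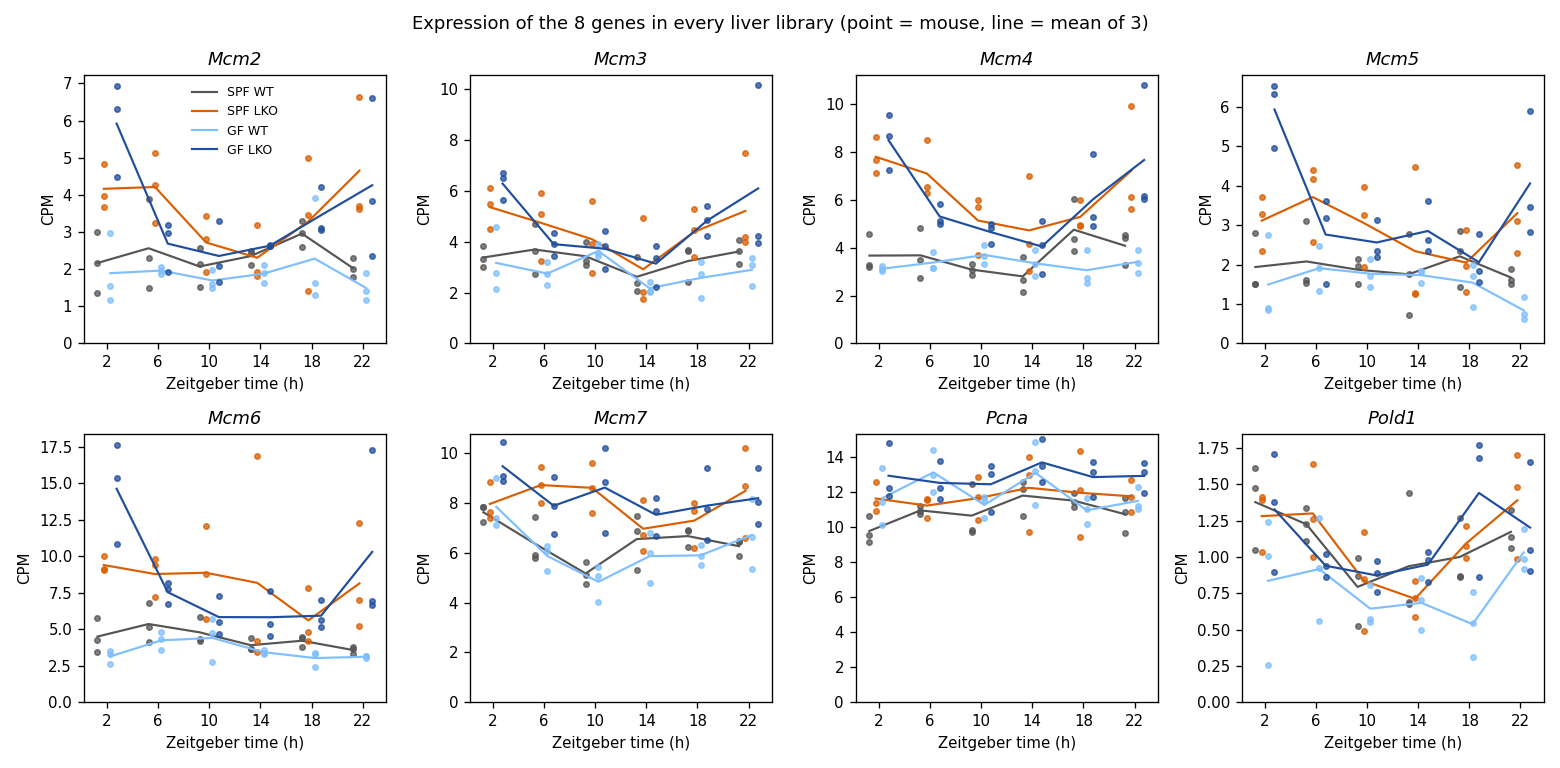
CPM (vertical axis, from 0) against zeitgeber time in hours for each of the 8 genes; points are single mice, lines join the means of 3 mice, and colours mark the 4 groups. The *Mcm6* panel shows GF LKO mice at ZT2 between 10.8 and 17.6 CPM, above every WT point, whereas the 4 lines for *Pcna* lie close together.

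The first comparison asked how loss of liver *Bmal1* changed these genes with microbes present. In SPF mice all 6 helicase genes were higher in LKO than in WT livers, whereas the clamp and the polymerase subunit were nearly level. *Mcm6*, a subunit of the ring, ranged from 3.32 to 6.79 CPM (median 4.22) in SPF WT mice and from 3.47 to 16.9 CPM (median 8.31) in SPF LKO mice. The groups overlapped up to 6.79 CPM. The SPF LKO libraries below 4.5 CPM were ZT14 replicates 2 and 3 and ZT18 replicate 1, including both that went against their label. Further SPF LKO libraries, not against their label, lay within the overlap at ZT18 (4.80 CPM), ZT22 (5.19 CPM) and ZT10 (5.71 CPM). The log2 fold change was 0.89 ± 0.16 (SE, n = 18 per group) for *Mcm6*, 0.75 ± 0.13 for *Mcm4*, 0.60 ± 0.18 for *Mcm5*, 0.59 ± 0.16 for *Mcm2*, 0.41 ± 0.14 for *Mcm3* and 0.31 ± 0.073 for *Mcm7*. For *Pcna* it was 0.10 ± 0.053 and for *Pold1* 0.02 ± 0.15; over the 13 fits run *Pold1* lay between -0.05 and 0.09 and was positive in 11, turning without the mice numbered 1 (-0.05) and without SPF LKO ZT22 replicate 2 (-0.0085). The 6 helicase genes had an adjusted p under 0.05 in edgeR's test over all genes, as had 23.1% of the 13159 genes tested (11.6% called higher); since the genes were chosen on this contrast, nothing is read from that count. Only 3 of the 8 genes were called without the mice numbered 2. Without the 2 libraries against their label the values were larger, 0.97 for *Mcm6* and 0.81 for *Mcm4*, and *Pcna* (0.14) was called as well.

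Within single time points, *Mcm4* was higher in all 3 SPF LKO than in all 3 SPF WT mice at ZT2, ZT6, ZT10 and ZT22. *Mcm4* values at ZT2 were 7.11, 8.65 and 7.65 CPM in SPF LKO mice and 4.56, 3.27 and 3.19 CPM in SPF WT mice, with no overlap. At ZT14 the 3 SPF LKO values were 6.99, 3.03 and 4.15 CPM against 2.65, 3.59 and 2.17 CPM in SPF WT mice. They overlapped only through SPF LKO replicate 2 (3.03 CPM), which went against its label; the other 2 SPF LKO values lay above all 3 SPF WT values. The mean was higher in SPF LKO mice at all 6 time points for 5 of the 8 genes, as for 11.6% of all genes tested. Libraries separated completely at 3 or more time points for 3 of the 8 (*Mcm4*, *Mcm6* and *Mcm7*), as for 7.48% of all genes tested. Nothing is read from these counts, since the genes were chosen on this contrast.

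In GF mice the same comparison gave a larger value for each helicase gene and for *Pold1*; for *Pcna* the values were 0.12 in GF and 0.10 in SPF mice, and 0.14 in SPF mice without the 2 libraries against their label. *Mcm6* ranged from 2.40 to 5.70 CPM (median 3.35) in GF WT mice and from 4.52 to 17.6 CPM (median 6.95) in GF LKO mice. The highest GF WT value belonged to ZT10 replicate 1, and the GF LKO libraries at ZT2 and 1 at ZT22 stood above 10 CPM. *Mcm5*, the subunit beside MCM2 at the gate of the ring, ranged from 0.614 to 2.76 CPM (median 1.62) in GF WT and from 1.51 to 6.52 CPM (median 2.98) in GF LKO mice. These groups overlapped too, since GF LKO libraries below 2.76 CPM were found at ZT6, ZT10, ZT14 and ZT18. The log2 fold change was 1.23 ± 0.17 for *Mcm6*, 1.12 ± 0.20 for *Mcm5*, 0.93 ± 0.18 for *Mcm2*, 0.86 ± 0.12 for *Mcm4*, 0.70 ± 0.14 for *Mcm3*, 0.53 ± 0.17 for *Pold1*, 0.43 ± 0.084 for *Mcm7* and 0.12 ± 0.052 for *Pcna* (SE, n = 18 per group). All but *Pcna* were called, beside 30.8% of the 12662 genes tested (15.6% called higher). The genes were chosen on this contrast, so nothing is read from the counts in this paragraph. The mean was higher in GF LKO mice at all 6 time points for 7 of the 8 genes, as for 13.2% of all genes tested, and the libraries separated at 3 or more time points for all 6 helicase genes, as for 10.6%.

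**Figure D2:**
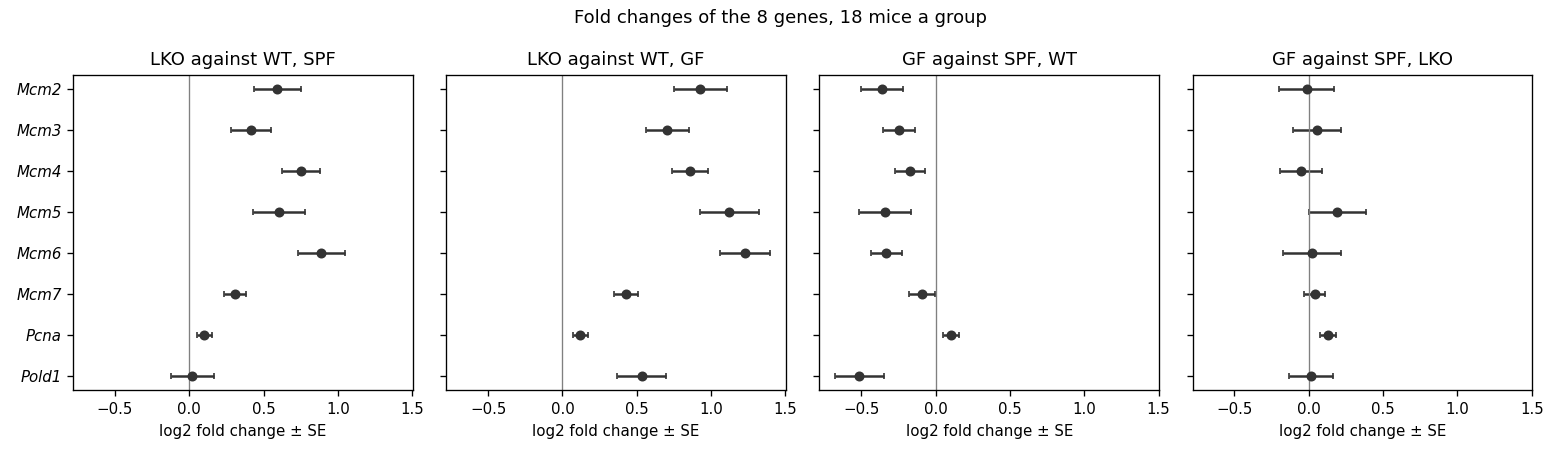
Log2 fold change with its SE (horizontal axis) of the 8 genes in the 4 pairwise comparisons, 18 mice per group. LKO against WT lies between 0.02 for *Pold1*, whose sign turned in 2 of 13 fits, and 0.89 for *Mcm6* in SPF mice and between 0.12 for *Pcna* and 1.23 for *Mcm6* in GF mice, and GF against SPF is negative for 7 of the 8 genes in WT mice.

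Whether the genotype effect itself differed between GF and SPF mice was tested, a contrast that the choice of genes had not named. It is built from the genotype and microbial effects known at that choice, so the values of the 8 genes are not independent of it. The difference of log2 fold changes had a median of 0.31 over the 8 genes beside 0.00012 over the 13484 genes tested, and none of the 8 was called. It was positive for 7 genes and near 0 for *Pcna* (0.01 ± 0.073), whose value ran from -0.06 to 0.09 over the 15 fits run and was -0.02 without the 2 SPF LKO libraries against their label. It was largest for *Mcm5* at 0.51 ± 0.27 (edgeR, adjusted p = 0.81) and *Pold1* at 0.51 ± 0.22 (edgeR, adjusted p = 0.61), and it was 0.34 ± 0.23 for *Mcm6* (edgeR, adjusted p = 0.92). Only *Pold1* had an unadjusted p under 0.05, DESeq2 also called 0 of the 8, and 0.438% of all genes were called, 0.119% with a higher and 0.319% with a lower effect in GF mice.

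The microbial comparison asked what the absence of microbes did in each genotype, and it shares its samples with the genotype comparisons. The genes were chosen with microbial effects known, so nothing is read from the counts of calls among the 8. In WT mice 7 of the 8 genes were lower in GF than in SPF livers. *Pold1* ranged from 0.523 to 1.61 CPM (median 1.09) in SPF WT mice and from 0.259 to 1.27 CPM (median 0.782) in GF WT mice. The groups overlapped over most of their range, and the lowest GF WT library held 4 *Pold1* counts. The log2 fold change (GF against SPF) was -0.51 ± 0.17 for *Pold1*, -0.36 ± 0.14 for *Mcm2*, -0.34 ± 0.17 for *Mcm5*, -0.33 ± 0.10 for *Mcm6*, -0.25 ± 0.11 for *Mcm3*, -0.17 ± 0.10 for *Mcm4* and -0.09 ± 0.085 for *Mcm7*, and it was 0.10 ± 0.053 for *Pcna*. *Pold1*, *Mcm2* and *Mcm6* were called, beside 31.8% of the 12776 genes tested (17.7% called lower), and 0 of the 8 were called without the mice numbered 3 or without the filter on low counts. In LKO mice the helicase genes were nearly level between GF and SPF livers, from -0.05 ± 0.14 for *Mcm4* to 0.19 ± 0.19 for *Mcm5*. *Pold1* was at 0.01 ± 0.15, and only *Pcna* (0.13 ± 0.052) was called, beside 36.4% of the 13010 genes tested; its call was lost without the 2 SPF LKO libraries against their label and without GF LKO ZT22 replicate 2. Neutrophil markers were lower in GF mice of both genotypes, with 3 of 3 tested markers called in each and summed levels of 1.19 to 25.2 CPM in SPF WT against 0.345 to 7.29 CPM in GF WT mice, and 4 of 6 hepatocyte markers were called higher in GF mice of each genotype. Their part in the values of *Pold1* and the helicase genes was not tested.

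The highest SPF WT library for 4 of the 6 helicase genes was ZT6 replicate 3, with 6.79 CPM of *Mcm6* and 3.88 CPM of *Mcm2*. The same library was the highest of the 18 for the proliferation marker *Mki67* (9.80 CPM, group median 1.90 CPM) and for the summed markers of stellate cells, of Kupffer cells and macrophages (451 CPM, group median 246 CPM) and of lymphocytes (14.1 CPM, group median 3.63 CPM). Without it, the microbial effect in WT mice was -0.27 for *Mcm6* and -0.30 for *Mcm2*, 2 of the 8 genes were called, and the genotype effect in SPF mice was 0.94 for *Mcm6*. The highest SPF LKO library for 5 of the helicase genes, ZT22 replicate 2, had 1.80 CPM of *Mki67*, below its group median of 1.95 CPM, and without it the genotype effect for *Mcm6* was 0.85.

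Bulk RNA cannot tell fewer or more cells of a type from less or more RNA per cell. Among markers of other cell types, those of Kupffer cells and macrophages moved with genotype in the opposite direction to the helicase genes: 4 of 6 were called lower in SPF LKO mice and 2 of 6 in GF LKO mice, with summed levels of 174.8 to 451 CPM in WT and 167 to 274 CPM in LKO mice under SPF conditions, and of 144 to 292 CPM in WT and 107 to 249.9 CPM in LKO mice under GF conditions. The medians of these sums were 246 CPM in WT and 210 CPM in LKO mice under SPF conditions. Under GF conditions they were 223 and 186 CPM. The summed cholangiocyte markers lay in the same direction as the helicase genes, with a median of 7.999 CPM in WT and 13.5 CPM in LKO mice under SPF conditions and of 6.56 and 9.69 CPM under GF conditions, and 1 of 4 was called higher in each; the median log2 fold change of the 4 markers was -0.09 in SPF and 0.17 in GF mice. Stellate cell markers had summed medians of 313 and 333 CPM under SPF and 308 and 351 CPM under GF conditions, with 1 of 5 and 2 of 5 called higher. Lymphocyte markers stayed low, with summed levels of 1.66 to 14.1 CPM over the 4 groups, and 0 of the 4 tested in SPF mice and 0 of the 2 tested in GF mice were called by edgeR (2 and 0 at an unadjusted p under 0.05). The summed level of 6 hepatocyte markers (*Alb*, *Apoa1*, *Ttr*, *Fgb*, *Cps1* and *Tat*) had a median of 109094 CPM in SPF WT and 61517 CPM in SPF LKO mice, and of 135908 CPM in GF WT and 64609 CPM in GF LKO mice, yet only 1 of the 6 was called lower in SPF and 2 of the 6 in GF mice. The part of these shifts in the helicase genes was not tested.

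The rest of the replication machinery was followed in 101 other genes, of which 82 passed the filter on low counts in SPF mice and 80 in GF mice. In SPF mice 22 of the 82 were called (26.8%, beside 23.1% of all genes), 16 higher and 6 lower in LKO livers, with a median log2 fold change of 0.06 beside -0.01 over all genes. In GF mice 34 of the 80 were called (42.5%, beside 30.8%), 28 higher and 6 lower, with a median of 0.12 beside 0.01. Of the 80 genes tested in both, 19 were called in both. These lists were also chosen with earlier results of these data known. Their shares and p-values, here and below, are therefore not independent of that choice.

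Of the helicase activation and fork genes, 4 of 12 rose in SPF LKO mice and 8 of 12 in GF LKO mice, and none fell; over all genes, 11.6% and 15.6% were called higher. Differences between the lists were not tested. *Topbp1*, which helps to activate origins, rose by a log2 fold change of 0.26 ± 0.059 in SPF mice (edgeR, adjusted p = 0.0010) and 0.29 ± 0.078 in GF mice (adjusted p = 0.0041). *Gins3*, a subunit of the GINS complex that joins MCM2-7 in the active helicase, rose by 0.62 ± 0.17 in GF mice (edgeR, adjusted p = 0.0052). Of the clamp loading, RPA and Okazaki fragment genes, 2 of 14 rose in SPF mice, and in GF mice 6 of 14 rose and 1 fell. The clamp loader subunit *Rfc5* rose by 0.71 ± 0.097 in SPF mice (edgeR, adjusted p = 7.1e-07) and 0.68 ± 0.10 in GF mice (adjusted p = 8.9e-07), while the clamp that it loads, *Pcna*, had values of 0.10 and 0.12. *Rpa1*, the large subunit of the single-strand binding protein, rose from 29.9 ± 2.97 to 42.95 ± 6.87 CPM in SPF mice (SD, n = 18; edgeR, log2 fold change 0.52 ± 0.066, adjusted p = 2.1e-07) and from 32.9 ± 3.08 to 48.6 ± 4.71 CPM in GF mice (0.57 ± 0.048, adjusted p = 2.4e-12). Of 10 polymerase and primase genes, 2 rose in SPF mice, and 4 rose and 1 fell in GF mice. Among them *Pole*, the catalytic subunit of the leading-strand polymerase, rose by 0.73 ± 0.16 in SPF mice (edgeR, adjusted p = 0.00077) and 0.61 ± 0.14 in GF mice (adjusted p = 0.00069). *Pole4*, a smaller subunit of the same polymerase, fell by 0.43 ± 0.080 in GF mice (edgeR, adjusted p = 5.3e-05). Its value in SPF mice was -0.26 ± 0.12 (edgeR, adjusted p = 0.12). Of 4 histone deposition genes, 1 was called in each microbial state, the chromatin assembly gene *Chaf1a*, which rose by 0.77 ± 0.18 in SPF mice (edgeR, adjusted p = 0.0013) and 0.95 ± 0.14 in GF mice (adjusted p = 1.7e-06).

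Nucleotide supply genes moved both ways, few genes of the origin licensing list were called, and few mitotic genes were measured well enough to test. Of 11 genes tested in the origin licensing list, only *Mcm8* rose and only *Mcm10* fell in each microbial state. The tested *Orc* genes, *Cdt1* and *Gmnn* were called in neither state. *Mcm8*, which is not part of MCM2-7, rose by 0.41 ± 0.094 in SPF mice (edgeR, adjusted p = 0.0011) and 0.39 ± 0.11 in GF mice (adjusted p = 0.0046). *Mcm10*, which despite its name is not a subunit of the ring, fell by 1.12 ± 0.24 on the log2 scale in SPF LKO mice (edgeR, adjusted p = 0.00055) and by 1.28 ± 0.20 in GF LKO mice (adjusted p = 3.6e-06), from medians of 71.4 and 77.4 CPM in WT to 25.97 and 34.99 CPM in LKO mice. Of 8 nucleotide supply genes, 2 rose and 2 fell in SPF mice and 3 rose and 2 fell in GF mice. *Rrm2*, the S-phase subunit of ribonucleotide reductase, fell by 0.63 ± 0.23 in SPF mice (edgeR, adjusted p = 0.041) and by 1.44 ± 0.19 in GF mice (adjusted p = 9.6e-08), and the thymidine kinase gene *Tk1* fell by 0.31 ± 0.12 (adjusted p = 0.0496) and 0.48 ± 0.11 (adjusted p = 0.00062). Of the 15 mitosis and proliferation markers only 7 passed the filter in SPF mice and 6 in GF mice, and only *Aurka* rose in each, by 0.26 ± 0.074 (edgeR, adjusted p = 0.0088) and 0.37 ± 0.11 (adjusted p = 0.0069). *Mki67* had a median between 1.78 and 2.03 CPM in every group and was called in neither SPF (log2 fold change -0.26 ± 0.22, edgeR adjusted p = 0.41) nor GF mice (0.27 ± 0.16, adjusted p = 0.23), and *Ccnb1*, a cyclin of mitotic entry, had a median at or below 0.081 CPM in every group.

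Among the E2F genes and S-phase cyclins, 3 of 16 rose and 3 fell in SPF mice and 4 of 15 rose and 1 fell in GF mice. *E2f2*, an activator E2F, rose by 0.82 ± 0.23 in SPF LKO mice (edgeR, adjusted p = 0.0080) and by 1.38 ± 0.29 in GF LKO mice (adjusted p = 0.00024). *Ccne1*, a cyclin of the G1 to S transition, fell by 1.02 ± 0.31 in SPF mice (edgeR, adjusted p = 0.014). It did not pass the filter on low counts in GF mice. The other cyclin E gene, *Ccne2*, rose by 0.48 ± 0.15 in SPF mice (edgeR, adjusted p = 0.014) and 0.60 ± 0.17 in GF mice (adjusted p = 0.0047). *Tfdp1*, the E2F dimerization partner, fell by 0.30 ± 0.064 (edgeR, adjusted p = 0.00054) and 0.34 ± 0.085 (adjusted p = 0.0021). None of the 84 other replication genes tested differed in genotype effect between GF and SPF mice in edgeR or DESeq2; 3 had an unadjusted p under 0.05 in edgeR, with *Rrm2* the smallest (difference -0.81 ± 0.30, adjusted p = 0.42).

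**Figure D3:**
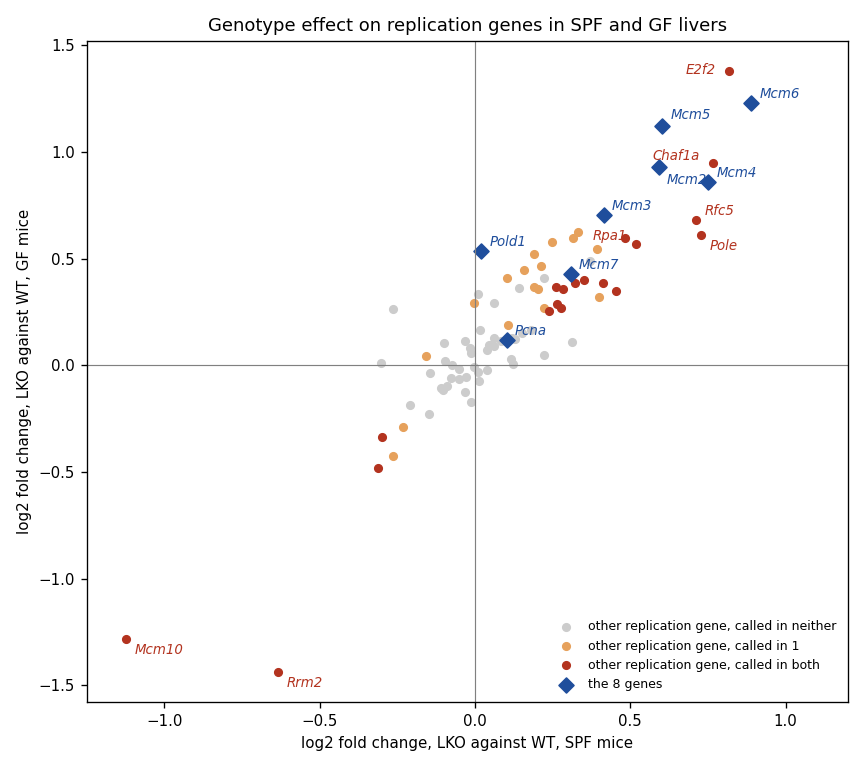
Log2 fold change of LKO against WT in SPF mice (horizontal) and in GF mice (vertical); diamonds are the 8 genes and dots the 80 other replication genes tested in both, coloured by the number of comparisons in which they were called. *Mcm6* and *E2f2* lie far to the upper right, *Mcm10* and *Rrm2* far to the lower left, and *Pcna* sits among the uncalled genes.

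In the microbial comparison, 14 of 80 other replication genes were called in WT mice (17.5%, beside 31.8% of all genes), 4 higher and 10 lower in GF livers. *E2f2* fell by 1.10 ± 0.28 on the log2 scale (edgeR, adjusted p = 0.0031), *Dbf4*, the regulatory subunit of the kinase that activates MCM2-7, fell by 0.64 ± 0.15 (adjusted p = 0.0012), and the ligase *Lig1*, the kinase *Cdk2* and the primase *Prim1* fell by 0.43, 0.43 and 0.40. In LKO mice 20 of 82 were called (24.4%, beside 36.4%), 10 higher and 10 lower. *Rrm2* fell by 0.81 ± 0.21 (edgeR, adjusted p = 0.0028) and *Dbf4* by 0.52 ± 0.12 (adjusted p = 0.00099), while the polymerase delta subunit *Pold4* rose by 0.41 ± 0.061 (adjusted p = 2.8e-06). *Pold4* had also risen in WT mice, by 0.39 ± 0.10 (edgeR, adjusted p = 0.0045), whereas *Pold1* of the same enzyme had a value of -0.51 there.

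Time of day was described by fitting a 24 h cosine in each group, with amplitude on the log2 scale from the mean to the peak. The genes were chosen with time effects known, so nothing is read from the counts of calls among the 8. In SPF WT mice the 8 amplitudes lay between 0.023 (*Mcm5*) and 0.33 (*Pold1*), with peaks scattered around the clock, and 0 of the 8 were called by edgeR (0 at an unadjusted p under 0.05, and 0 by DESeq2), beside 15.5% of the 13359 genes tested; 1 was called without SPF WT ZT14 replicate 3. In GF WT mice *Mcm6* (0.29, peak at ZT8.64) and *Mcm7* (0.25, peak at ZT23.8) were called, beside 27.7% of 12753 genes; 1 was without GF WT ZT6 replicate 3, and 0 were without the mice numbered 1 or 2. In SPF LKO mice *Mcm2* to *Mcm6* and *Pold1* had amplitudes between 0.26 and 0.48 and peaks between ZT0.871 and ZT5.66; *Mcm4* and *Pold1* were called, beside 22.2% of 13511 genes, none was without the 2 libraries against their label, and 1 was without SPF LKO ZT22 replicate 2.

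The most regular pattern was that of GF LKO mice. *Mcm2*, *Mcm3*, *Mcm4*, *Mcm5* and *Mcm6* had amplitudes of 0.60, 0.49, 0.51, 0.55 and 0.66 and peaks within 2 h on either side of lights on, at ZT23.7, ZT23.6, ZT24.0, ZT1.46 and ZT1.21, and all 5 were called, beside 36% of 13019 genes. Since the genes were chosen with time effects known, nothing is read from that count. *Mcm7* (0.099) and *Pcna* (0.040) were nearly flat. *Mcm6* in GF LKO mice was at 15.4, 10.8 and 17.6 CPM at ZT2, at 7.75, 6.71 and 8.14 CPM at ZT6 and at 5.34, 7.59 and 4.52 CPM at ZT14. The 3 values at ZT2 were above all those at ZT6, ZT10, ZT14 and ZT18, while at ZT22 replicate 2 stood apart, at 17.3 CPM beside 6.92 and 6.67 CPM. In GF WT mice *Mcm6* at ZT2 was 3.30, 3.51 and 2.61 CPM, so the difference between genotypes was widest there, at 14.6 ± 3.45 against 3.14 ± 0.473 CPM (SD, n = 3).

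**Figure D4:**
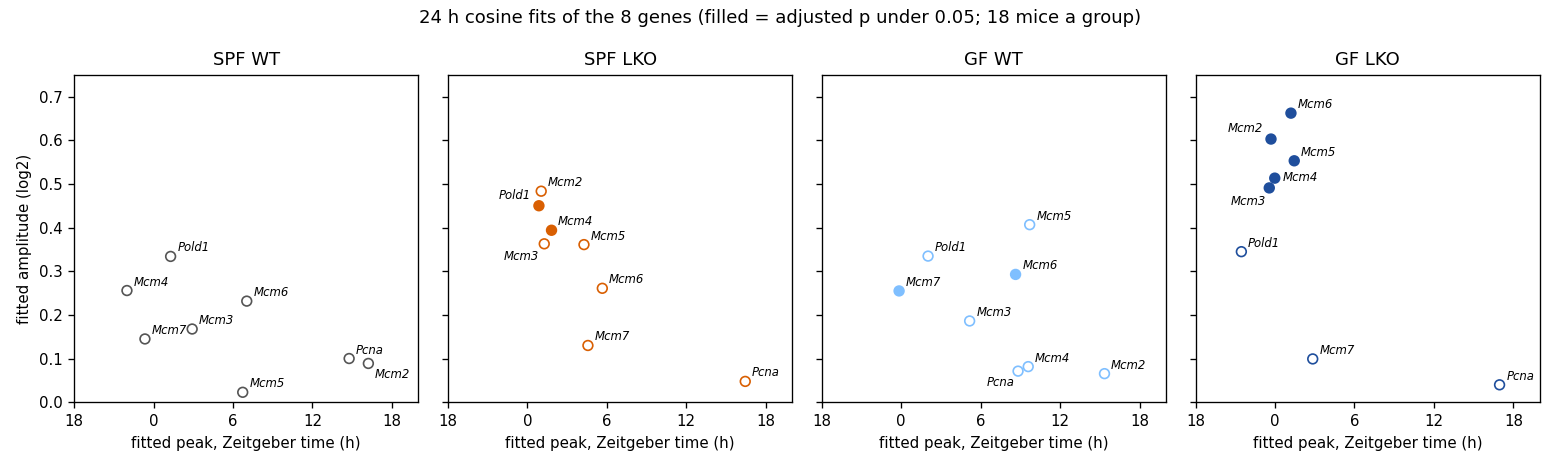
Fitted 24 h amplitude (log2, vertical) against fitted peak in zeitgeber time (horizontal, with 0 placed off centre so that peaks around lights on stay together) for the 8 genes in each group of 18 mice; filled points had an adjusted p under 0.05. In GF LKO mice 5 helicase genes gather between ZT23.6 and ZT1.46 at amplitudes of 0.49 to 0.66, whereas the SPF WT points are scattered and open.

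The difference of the rhythm between LKO and WT mice is built from the genotype and time effects known when the genes were chosen. The p-values of the 8 genes for it are therefore not independent of that choice. This difference was tested all the same, as the choice had not named it. In GF mice it was called for *Mcm6* (edgeR, adjusted p = 0.0047) and *Mcm4* (adjusted p = 0.0072), beside 6.04% of the 13373 genes tested. *Mcm5* (edgeR, adjusted p = 0.065), *Mcm3* (0.14) and *Mcm2* (0.14) did not pass, nor did *Mcm7*, *Pold1* or *Pcna*. *Mcm4* in GF WT mice stayed between 3.06 ± 0.743 and 3.70 ± 0.412 CPM at the 6 times, while in GF LKO mice it moved from 4.05 ± 1.11 CPM at ZT14 to 8.49 ± 1.16 CPM at ZT2 (SD, n = 3). The call held without GF LKO ZT22 replicate 2 for both genes; it was lost for *Mcm6* without the mice numbered 1, and for *Mcm4* without those of any 1 number and when ZT was fitted as a factor. In SPF mice 0 of the 8 were called by edgeR or DESeq2 (1, *Mcm2*, at an unadjusted p under 0.05; edgeR adjusted p = 0.37), beside 1.06% of 13952 genes.

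Rhythms of the other replication genes were called for 14 of 82 in SPF WT, 24 of 85 in SPF LKO, 27 of 81 in GF WT and 33 of 83 in GF LKO mice (17.1%, 28.2%, 33.3% and 39.8%), close to the shares over all genes of 15.5%, 22.2%, 27.7% and 36%. In GF LKO mice 8 of 10 polymerase and primase genes and 10 of 15 clamp loading, RPA and Okazaki fragment genes were called. *Orc3* was the only origin licensing gene called in these mice. *Gins1* was the only helicase activation and fork gene, and *Aurka* the only mitosis and proliferation marker. Differences between lists were not tested. The smallest p there belonged to *Rbl2* (amplitude 0.34, peak at ZT6.05, edgeR adjusted p = 0.00010). The clamp loader subunit *Rfc3* (0.57, ZT3.48, adjusted p = 0.00023) and the primase-polymerase subunit *Pola1* (0.46, ZT2.30, adjusted p = 0.00039) came next and peaked early in the light phase. *E2f2* (0.91, ZT20.2, adjusted p = 0.00071) and *Rb1* (0.36, ZT5.96, adjusted p = 0.00076) followed, with *E2f2* peaking in the dark phase. In SPF WT mice the smallest p belonged to *Ccne1*, with an amplitude of 1.47 and a peak at ZT8.79 (edgeR, adjusted p = 1.8e-05), followed by *Tk1* (0.50, peak at ZT13.4; adjusted p = 0.00014) and *Rrm2* (0.84, peak at ZT13.8; adjusted p = 0.00015). *Ccne1* in GF WT mice gave an amplitude of 1.38 and a peak at ZT8.95 (edgeR, adjusted p = 1.1e-05).

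The genes whose levels over the 72 libraries most resembled the mean of the 8 standardised profiles were *Car5b* (Pearson r = 0.81), *Topbp1* (0.81), *Cyp2c55* (0.80), *Gstm3* (0.80), *Fmnl2* (0.79), *Ccn4* (0.79), *Gstm2* (0.79), *Atp11a* (0.78), *4930459C07Rik* (0.78) and *Zcwpw1* (0.78). The 72 libraries fall into 24 sets of 1 group and time, and after the means of these sets were removed *Topbp1* kept 0.72, *Gstm2* 0.64 and *Atp11a* 0.33. Only *Topbp1* of these 10 belonged to the replication lists. *Car5b* encodes a mitochondrial carbonic anhydrase, *Cyp2c55* a cytochrome P450, and *Gstm2* and *Gstm3* encode glutathione S-transferases.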

How the data were processed

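RNA of 72 mouse livers was sequenced from stranded mRNA libraries. The deposited values are raw read counts per gene: the authors aligned reads to mm10 with STAR 2.6.1b and counted exon reads with featureCounts 2.0.0, per the file headers without strand and without reads that map to several places or genes. Strand is therefore not separated where *Mcm7* overlaps *Ap4m1*. Of 55573 genes, 55394 matched a symbol. Count columns left unused numbered 0.

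Counts were scaled (TMM) and tested with edgeR 4.0.16 (R 4.3.3; filterByExpr, quasi-likelihood F test, Benjamini-Hochberg over all genes tested, threshold 0.05). SE is the log2 fold change divided by the square root of F. Pairs used 18 against 18 libraries over all times, the genotype by microbial status term used 72, and rhythms used cosine and sine terms with a 24 h period. CPM were computed from TMM-scaled totals. Figures were drawn with matplotlib 3.10.9. Scripts were tested on simulated data. The p-values rest on the spread between mice, which for pairs and the genotype by microbial status term includes differences between the pooled times. Mice were taken as independent, since the labels do not tie them to cages or litters.

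The members and all lists were chosen with earlier results of these data known. Named genes were the 8 members and, per pair, up to 5 called replication genes with the largest rise and up to 5 with the largest fall. Per rhythm, up to 5 with the smallest p were named. *Topbp1*, *Aurka*, *Mki67*, *Ccnb1*, *Mcm8* and the genotype values of *Ccne2* were added after values were seen. So were the genotype calls of the *Orc* genes, *Cdt1* and *Gmnn* and the GF LKO rhythm calls of *Orc3*, *Gins1* and *Aurka*. The 10 genes most like the members' mean (mean log2 CPM of at least 0, prior count 2) were also named. *Chtf8* maps to 2 rows and was left out. Alternatives were DESeq2 1.42.0, RLE scaling, no low-count filter, a replicate block, each replicate number left out, ZT as covariate or factor, and leaving out doubted libraries; leaving out the 4 libraries together or single high libraries was chosen after seeing the data.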

Additional observations from a re-analysis of the deposited data

Results flagged for a closer look

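The following genes had a 24 h rhythm that differed between LKO and WT mice in a test of the difference itself (edgeR, adjusted over all genes tested). Among the helicase genes in GF mice these were *Mcm6* (adjusted p = 0.00472), called under 11 of 12 settings, and *Mcm4* (adjusted p = 0.00717), called under 8 of 12. Over those settings the adjusted p ran from 0.000149 to 0.0718 for *Mcm6* and from 0.00132 to 0.0986 for *Mcm4*. Both genes were chosen with genotype and time effects known, so these p-values are not independent of that choice.

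Among the other replication genes in GF mice, *Tk1* (adjusted p = 0.000929) peaked at ZT14.5 in WT and at ZT22.1 in LKO mice, with amplitudes of 0.31 and 0.41. *Gmnn*, which encodes the licensing inhibitor geminin (edgeR, adjusted p = 0.000944), had an amplitude of 0.64 in GF WT and 0.044 in GF LKO mice. *Ccne1* (adjusted p = 0.0173) had an amplitude of 1.38 in GF WT mice and did not pass the filter on low counts in GF LKO mice alone. *Chaf1b* (adjusted p = 0.0240) went from 1.01 to 0.23, *Gins4* (adjusted p = 0.0273) from 0.34 to 0.0040, and *Pola1* (adjusted p = 0.0252) moved its peak from ZT7.27 to ZT2.30. *Tk1* and *Gmnn* were called under 11 of 12 settings each, *Chaf1b* under 9 of 12, *Ccne1* under 7 of 11, *Pola1* under 7 of 12 and *Gins4* under 6 of 12.

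In SPF mice *Pole* was called (adjusted p = 0.0478), with amplitudes of 0.33 in WT and 0.58 in LKO mice and peaks at ZT11.1 and ZT3.69; it was called under 5 of 13 settings and not without the 2 SPF LKO libraries against their label.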

How the results depend on the processing

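The genotype effect of each helicase gene stayed positive in every fit run (13 in SPF and 12 in GF mice), from 0.81 to 0.97 for *Mcm6* in SPF mice and from 1.13 to 1.34 in GF mice, and DESeq2 called the same numbers of the 8 genes, 6 and 7. Leaving out the mice of 1 replicate number moved the count of other replication genes called by genotype to between 11 and 15 in SPF and between 21 and 25 in GF mice, by microbial status to between 3 and 9 in WT and between 8 and 15 in LKO mice, and by rhythm to between 4 and 7 in SPF WT, 3 and 12 in SPF LKO, 11 and 22 in GF WT and 13 and 20 in GF LKO mice; the rhythm difference went to 0 in SPF mice and to between 1 and 5 in GF mice. Leaving out single high libraries, chosen after seeing the data, gave 24 genes called by genotype in SPF mice (without SPF WT ZT6 replicate 3), 31 in GF mice and 35 rhythms in GF LKO mice (both without GF LKO ZT22 replicate 2), and without the 2 SPF LKO libraries against their label genotype called 30 in SPF mice. Without replicate number 2, 3 of the 8 genes were called by genotype in SPF mice. Fitting ZT as a covariate raised the microbial count in WT mice from 14 to 22, and no low-count filter lowered that in LKO mice from 20 to 12. Fitting ZT as a factor gave 5 called rhythms in SPF WT, 5 in SPF LKO and 13 in GF WT mice, and rhythm differences of 0 in SPF and 3 in GF mice. DESeq2 gave 2 and 10 rhythm differences in SPF and GF mice. Deviations of same-numbered mice of different groups had a correlation over 0.1 in 25 of 108 pairs, beside 55 of 216 pairs with different numbers. These values show no pairing by number but cannot exclude a shared batch, and mice were treated as unpaired. A fit with the replicate block gave 27 and 37 other replication genes called by genotype in SPF and GF mice and 0 rhythm differences in SPF mice. RLE scaling moved the median of all genes by under 0.02. The cause of these shifts was not tested. *Pold1*, with 4 to 40 counts per library, is limited by depth.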
